A study of Mus musculus with 27 samples.

Results

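The inbred mouse strain 129S1/SvImJ was compared with 8 other inbred strains for DNA methylation in hepatocytes, the main metabolic cells of the liver. Its samples were chosen by the strain in their labels, which gave 3 of the 27 samples measured. The other 24 samples, again 3 per strain, came from the laboratory strains DBA/2J, A/J, NZO/HlLtJ, NOD/ShiLtJ and C57BL/6J and from WSB/EiJ, PWK/PhJ and CAST/EiJ. All mice were female and 12 weeks old, no treatment is named in the labels, and no strain served as a control. The study set differences in sequence between strains beside differences in chromatin marks and gene expression. Only its reduced representation bisulfite sequencing was analysed here.

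In mammals a methyl group is added mainly to cytosines followed by guanine, known as CpG sites. Most CpG sites in the genome are methylated, whereas clusters of CpG sites at gene starts, called CpG islands, are usually free of methylation, and methylation of a promoter often accompanies a silent gene. The assay cuts DNA at CCGG with the enzyme MspI and so reads mainly CpG-dense DNA. Bisulfite then converts unmethylated cytosine, so that a cytosine that stays unconverted is read as methylated. The family of strains to which 129S1/SvImJ belongs is well known as the source of many embryonic stem cell lines used to make knockout mice.

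The values were percent methylation at single cytosines. Each 129S1/SvImJ sample listed between 2905185 and 2984375 positions, and the other samples listed between 2904787 and 3156965. Levels were compared at the 1692477 positions listed in all 27 samples. Tiles are windows of 1 kb that held 5 or more such positions, and a tile's level is the mean over them. After tiles whose mean over all samples lay within 2.5 points of 0 or 100% were left out, 45604 tiles were tested with limma. A tile was called when the Benjamini-Hochberg adjusted p was under 0.05 and 129S1/SvImJ differed by 25 percentage points or more from the mean of the 8 other strain means. A tile was set apart when it had an adjusted p under 0.05 and a gap of 10 points or more separated the 3 samples of 129S1/SvImJ, on either side, from the other 24. Of 11 hepatocyte marker genes 4 had shared positions near their start. At Ass1, a urea cycle enzyme, the level was 0.735% in 129S1/SvImJ and 0.487% as the mean of the other strains. It was 4.09 and 5.72% at Hnf4a, a hepatocyte transcription factor, 4.97 and 3.35% at F2, which encodes prothrombin, and 12.4 and 11.1% at Apob, the main protein of the lipoproteins the liver secretes. Near the starts of the endothelial receptors Tek, Tie1 and Kdr the level in 129S1/SvImJ was 89.2% over 3 positions, 97.1% over 6 and 2.68% over 71. At the stellate cell markers Reln, Col1a2, Lrat and Des it was 0.607, 1.40, 2.36 and 11.1%. The leukocyte marker Coro1a was at 13.1%, and the cholangiocyte markers Krt7 and Epcam were at 20.5 and 14.3%. These levels thus did not separate hepatocyte markers from those of the other cell types. None of the 23 tested tiles at the hepatocyte markers was called, nor any of the 12 at leukocyte, 14 at endothelial, 19 at stellate cell and 12 at cholangiocyte markers. At an unadjusted p under 0.05, limma gave 3, 2, 1, 4 and 2 of these tiles, in the same order, which is 12 of 80 (15%), beside 6824 of all 45604 tiles (15%). Over all tiles 0.274% were called.

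Promoter sequences are shown for 3 genes whose starts lay in tiles described below: Shroom3, whose 1 kb tile was lower in 129S1/SvImJ than in every other sample, Gm51701, where it was high together with DBA/2J, and Lxn, where it was among several methylated strains. Each line holds the 250 bases before the gene's start in RefSeq's mouse assembly GRCm38.p6, read along the gene. Capitals mark the bases whose methylation was listed in all 27 samples, which are the C or the G of a CpG site.
Shroom3 promoter, chr5:92809132-92809381, plus strand: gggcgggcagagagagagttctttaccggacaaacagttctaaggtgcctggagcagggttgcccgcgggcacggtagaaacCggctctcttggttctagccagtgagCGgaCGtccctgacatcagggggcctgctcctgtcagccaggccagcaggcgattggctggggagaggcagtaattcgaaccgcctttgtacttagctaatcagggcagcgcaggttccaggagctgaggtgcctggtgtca
Gm51701 promoter, chr9:123924898-123925147, plus strand: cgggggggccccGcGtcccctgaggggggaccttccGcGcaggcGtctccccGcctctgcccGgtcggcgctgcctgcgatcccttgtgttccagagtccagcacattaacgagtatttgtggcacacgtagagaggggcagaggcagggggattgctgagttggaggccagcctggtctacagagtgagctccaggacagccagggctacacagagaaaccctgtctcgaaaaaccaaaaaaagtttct
Lxn promoter, chr3:67463908-67464157, minus strand: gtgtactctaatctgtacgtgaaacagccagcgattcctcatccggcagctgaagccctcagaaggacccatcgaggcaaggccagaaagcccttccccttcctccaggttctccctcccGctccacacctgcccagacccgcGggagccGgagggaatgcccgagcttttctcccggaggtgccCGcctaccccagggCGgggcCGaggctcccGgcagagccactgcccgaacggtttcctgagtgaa
Bases in lower case are outside CpG sites or were not listed in all 27 samples, so that the values given cover only part of each promoter.

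At 9 tiles all 3 samples of 129S1/SvImJ lay apart from every other sample, which is 0.0197% of tiles tested. Methylation was higher in 129S1/SvImJ at 7 of them (0.0153%) and lower at 2 (0.00439%). The higher tiles were of 2 kinds: 4 lay at an end of a protein-coding gene, where the other strains were almost unmethylated, and the others lay inside Lima1 or between genes.

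The largest gap was in a tile between genes at chr2:163103001-163104000, 13400 bp from Gtsf1l, a gene known from germ cells. Its 6 shared positions had mean levels of 63.0, 71.4 and 72.3% in the 129S1/SvImJ samples. The other 24 samples ranged from 0 to 16.7%, with a median of 6.91%. The groups were separated by 46.2 points, and WSB/EiJ held the highest of the other samples. The mean of 129S1/SvImJ was 68.9% ± 5.15 (SD, n = 3) against 7.66% for the mean of the other strains (limma, adjusted p = 8.1e-09), and each of the 6 positions was above all other samples.

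Inside Lima1, which encodes an actin-binding LIM domain protein, the tile at chr15:99792001-99793000 measured 81.4, 86.9 and 81.6% in 129S1/SvImJ. The other samples ran from 14.3 to 49.4% with a median of 29.8%. No other sample reached the level of 129S1/SvImJ, and A/J came nearest. The difference was 53.9 points (limma, adjusted p = 1.7e-08). At 4 of 7 positions 129S1/SvImJ was above all other samples, and these lay in a stretch of 36 bp whose 5 shared positions averaged 89.2% in 129S1/SvImJ, with means of 5.79 to 38.8% elsewhere. Further along the same chromosome, 3 positions in Fam186a at chr15:99919681-99919864 were also separate, with 71.8, 81.0 and 70.0% in 129S1/SvImJ. The highest of the other samples there was 26.7%.

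A tile 10661 bp from Pax4, a transcription factor gene of the endocrine pancreas, lay at chr6:28460001-28461000. It measured 86.0, 90.1 and 91.9% in 129S1/SvImJ and 34.4 to 64.5% in the other samples, with a median of 54.2%. Here all strains were partly methylated, and 129S1/SvImJ stood 21.5 points above the nearest sample (limma, adjusted p = 1.4e-07).

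**Figure D1:**
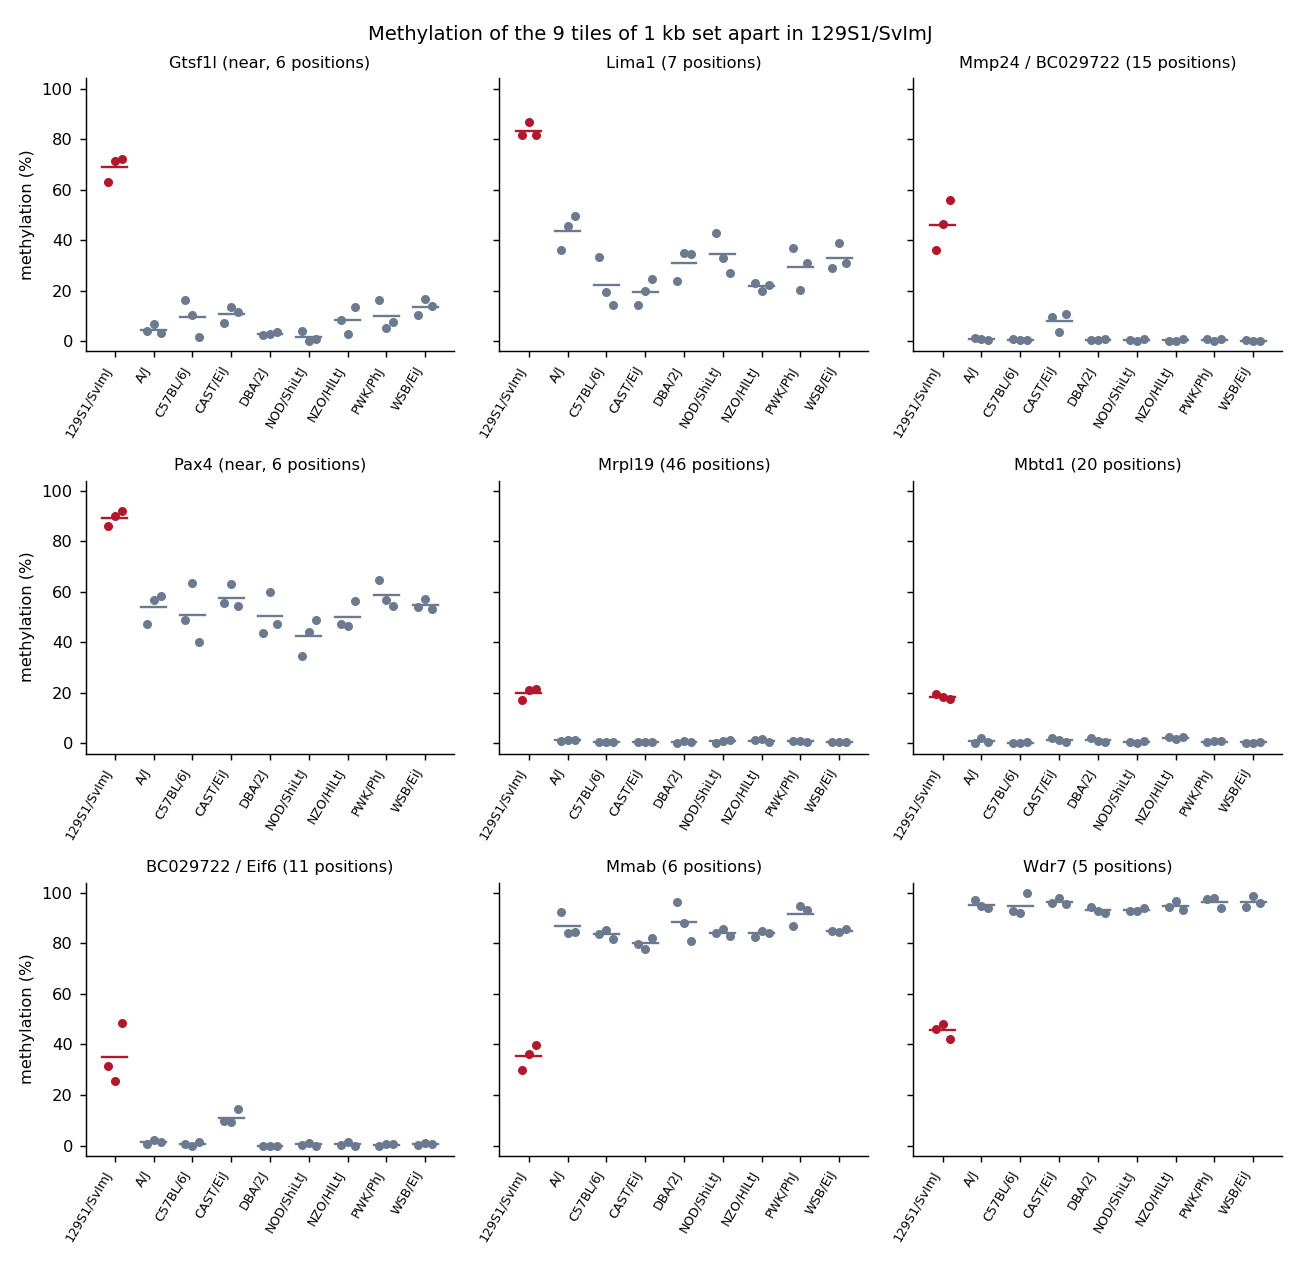
Mean percent methylation of the 9 tiles set apart in 129S1/SvImJ, with 1 point per sample, a bar at each strain mean and the strains along the horizontal axis. The 129S1/SvImJ samples (red) lie above the other 24 samples (grey) in 7 panels and below them in the panels of Mmab and Wdr7.

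The 2 tiles that were lower were both inside genes, and the other samples were at 78.0% or more in each. In Wdr7, which encodes a WD repeat protein linked to acidification of vesicles, the tile at chr18:63723001-63724000 measured 46.3, 48.1 and 42.2% in 129S1/SvImJ. All other samples were between 92.0 and 100%, with a median of 94.3%. The groups did not overlap, and the difference was -49.6 points (limma, adjusted p = 5.2e-10). In Mmab, which encodes the mitochondrial enzyme that makes adenosylcobalamin from vitamin B12, the tile at chr5:114439001-114440000 measured 29.8, 36.2 and 40.0% in 129S1/SvImJ. The other samples ranged from 78.0 to 96.3%, with a median of 84.6%. That is a difference of -50.2 points with a gap of 38.0 points between the nearest samples (limma, adjusted p = 1.4e-08). At both genes 129S1/SvImJ kept an intermediate level: all 5 positions of the Wdr7 tile and 5 of 6 of the Mmab tile had means between 20 and 80%.

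Near the ends of 4 genes, short blocks were listed as partly methylated in 129S1/SvImJ and as almost unmethylated in the other strains. These percents come from reads aligned to the reference assembly. Whether reads from a further copy of these sequences in the 129S1/SvImJ genome add to them was not tested. The blocks were found as groups of 3 or more set-apart positions no more than 1 kb apart, so their levels are a description without a test. In Mrpl19, which encodes a protein of the large mitochondrial ribosome subunit, the block spanned 138 bp at chr6:81965742-81965879, 70 bp from an end of the gene's span. Its 21 positions averaged 34.1, 40.2 and 40.9% in the 129S1/SvImJ samples and from 0 to 2.60% in the other samples. The 26 positions beside it, in the same region, averaged 4.52% in 129S1/SvImJ and at most 1.44% in any other sample. Of these 26, the 2 next to the block on its left were also methylated, at 25, 61.7 and 51.2% and at 25, 61.7 and 48.8% in the 129S1/SvImJ samples, so that the methylated stretch reached past the block. The whole tile, of 46 positions, was at 19.9% ± 2.53 (SD, n = 3) against 0.783% (limma, adjusted p = 7.3e-13). Here and at the tiles of Mbtd1 and BC029722 below, the mean of the other strains was under 2.5%. The filter on the mean thus kept these tiles only because 129S1/SvImJ was high. Without the filter they were also set apart, with an adjusted p of 1.5e-14 at Mrpl19 (limma).

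Mbtd1 encodes an MBT domain protein that reads histone marks. Its block covered 50 bp at chr11:93886259-93886308, 88 bp from the gene's start in RefSeq's promoter table, and held 9 positions, with 41.7, 40.4 and 39.2% in 129S1/SvImJ. The other samples reached at most 5.29%, in NZO/HlLtJ. The 54 flanking positions averaged 0.440% in 129S1/SvImJ, inside the range of 0.0772 to 1.16% of the other samples. The tile at chr11:93886001-93887000 was at 18.5% ± 1.02 (SD, n = 3) against 0.935% (limma, adjusted p = 2.9e-11).

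On chromosome 2 the blocks extended over neighbouring tiles at BC029722, a protein-coding gene between Mmp24 and Eif6. Mmp24 encodes a membrane-anchored metalloproteinase and Eif6 a factor of ribosome assembly. The tile at chr2:155818001-155819000 measured 35.9, 46.4 and 55.9% in 129S1/SvImJ and 0 to 10.7% in the other samples, with a median of 0.534% (limma, adjusted p = 1.6e-12). The next tile, chr2:155819001-155820000, measured 31.3, 25.4 and 48.4% against 0 to 14.4% with a median of 0.587% (limma, adjusted p = 4.1e-11). In both tiles 129S1/SvImJ was above every other sample, and CAST/EiJ was the only other strain with a mean over 5%, at 7.95 and 11.1%. The central 17 positions, within 79 bp and 217 bp from the start of BC029722 in the same table, averaged 37.1, 44.6 and 57.2% in 129S1/SvImJ. The 9 flanking positions were also methylated there, at 28.1, 24.2 and 44.3%, and reached at most 13% in the other samples. They lay within 70 bp of the block's centre, 1 on its left and 8 on its right. Shared positions thus did not reach far enough to show an edge like that at Mbtd1.

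Another block was found near the start of Rundc3b, a RUN domain gene whose annotated span overlaps that of Abcb1a, which encodes the drug exporter P-glycoprotein. Over 107 bp at chr5:8622602-8622708, 244 bp from the start of Rundc3b in that table, 22 positions averaged 27.6, 35.8 and 38.6% in 129S1/SvImJ. The other samples reached at most 2.69%. These averages of 129S1/SvImJ include some positions at or near 0 in all 3 of its samples. The 52 flanking positions averaged 0.169% in 129S1/SvImJ and up to 1.26% in the other samples, so that the methylated stretch was bounded on both sides. This stretch was found from single positions, because no tile that holds it was set apart.

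**Figure D2:**
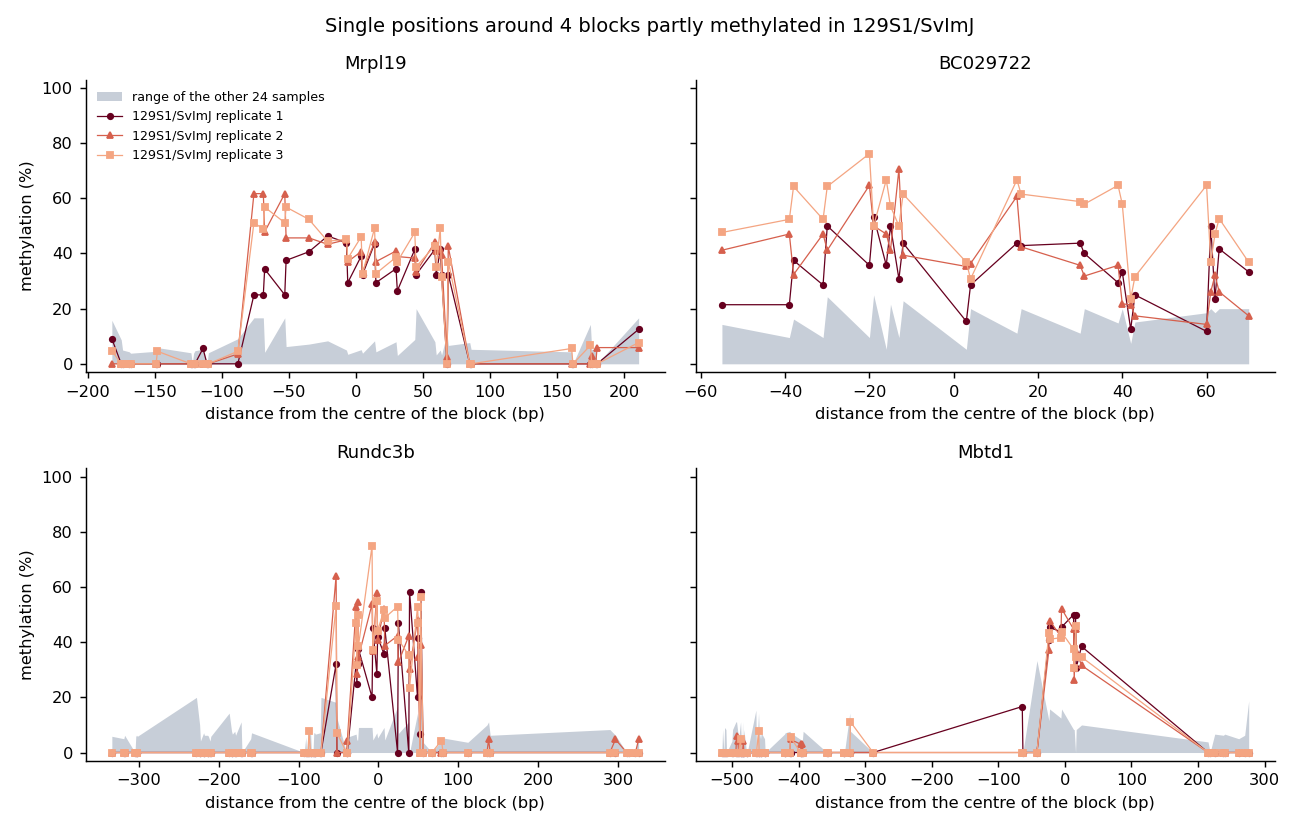
Percent methylation at single shared positions around the blocks at Mrpl19, BC029722, Rundc3b and Mbtd1, against distance from the block's centre in bp. Lines join neighbouring positions of each 129S1/SvImJ sample, and grey shows the range of the other 24 samples. At most positions of the blocks the 129S1/SvImJ samples are at intermediate levels above this range, which reaches up to 25% at BC029722. In the Rundc3b block replicate 1 is at 0 at some positions. Some positions in the Mrpl19 and Rundc3b blocks are at or near 0 in all 3 samples of 129S1/SvImJ.

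Called single positions were similar in number in each direction. More set-apart positions were higher than lower, but when neighbouring positions were joined into groups, more groups were lower. Of 704331 positions tested after the same filter on the mean as for tiles, 1940 were called (0.275%), 905 higher (0.128%) and 1035 lower (0.147%) in 129S1/SvImJ. Of these tested positions, 192 were set apart (0.0273%), 116 higher (0.0165%) and 76 lower (0.0108%). The blocks at Mrpl19, BC029722, Rundc3b and Mbtd1, where most other samples were near 0, held 19, 16, 15 and 9 of the higher ones. Among the set-apart positions outside these blocks, more were lower than higher. Without this filter, 119 positions were set apart as higher and 75 as lower. The counts of called and set-apart positions depended on single samples of 129S1/SvImJ: 1147 positions were called without replicate 1, and 298, 393 and 334 were set apart without replicates 1, 2 and 3. The 192 set-apart positions formed 105 groups when positions within 1 kb were joined, of which 82 were single positions and 11 held 3 or more. More of the 105 groups were lower than higher in 129S1/SvImJ, and this difference was not tested. The 8 groups at set-apart tiles held 65 of the 192 positions.

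Against the mean of the other 8 strains, 125 tiles were called (0.274%), 45 higher (0.0987%) and 80 lower (0.175%) in 129S1/SvImJ. With the other 24 samples taken as 1 group in place of 8 strains, 23 tiles were called, all among these 125. This count of 125 was the smallest among the 9 strains when each was compared in the same way: the others had between 139 tiles in NZO/HlLtJ and 718 in PWK/PhJ. Without replicates 1, 2 and 3 of 129S1/SvImJ in turn, 135, 141 and 140 tiles were called, near the 139 of NZO/HlLtJ with all its samples. The other strains were not recounted with samples of their own left out, so how firm this rank is was not tested. 129S1/SvImJ also had the fewest set-apart tiles, 9 against 15 to 303, but not the fewest by other counts. Tiles with an adjusted p under 0.05 numbered 1673 in 129S1/SvImJ, 1438 in DBA/2J, 1534 in NZO/HlLtJ and 1667 in NOD/ShiLtJ. Without replicate 1 of 129S1/SvImJ 16 tiles were set apart, more than the 15 of NZO/HlLtJ with all its samples. With any gap above 0, its samples did not overlap the other 24 at 163 tiles with an adjusted p under 0.05 (0.357%), 51 higher (0.112%) and 112 lower (0.246%), beside 142 tiles in DBA/2J and 147 in NZO/HlLtJ. At single positions it was not the lowest, since NZO/HlLtJ had 1706 called positions and DBA/2J 1853. The differences between these counts were not tested, because the comparisons share their samples.

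Higher tiles had a median level of 73.4% in 129S1/SvImJ, and the median difference was 30.9 points. Lower tiles had a median level of 27.9% and a median difference of -30.6 points. Over all tiles tested the median difference was 0.00445 points, with 22848 tiles higher and 22756 lower. Most called tiles were not particular to 129S1/SvImJ by the counts of strains on its side of the midpoint between its mean and that of the farthest strain. At 13 of the 125 tiles no other strain was on that side, at 23 tiles 1 strain was, at 31 tiles 2, at 29 tiles 3, at 14 tiles 4, at 13 tiles 5 and at 2 tiles 6 strains. WSB/EiJ was on the same side at 48 tiles, more than any other strain, and A/J at 28, the fewest.

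The called tiles named next were chosen after their values were seen, as examples with large differences. At the start of Shroom3, which encodes an actin-binding protein that shapes epithelial cells, the tile chr5:92809001-92810000 measured 2.78, 11.2 and 4.77% in 129S1/SvImJ. The other samples ranged from 16.6 to 81.8% with a median of 51.1%, and WSB/EiJ was the next lowest strain at 23.1%. All 3 samples of 129S1/SvImJ were lower than every other sample, by 5.41 points at the nearest (limma, adjusted p = 8.6e-08). At the 5 positions in capitals in the promoter printed above, 129S1/SvImJ measured 0, 8 and 0%, a mean of 2.67% ± 4.62 (SD, n = 3) against 50.6%. The lowest of the other samples there was at 7.27%, so that the ranges overlapped.

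In Phldb2, which encodes a membrane-associated protein at cell adhesions, 27 positions at chr16:45843001-45844000 averaged 11.3, 10.6 and 9.66% in 129S1/SvImJ. The other samples lay between 17.9 and 68.2%, with WSB/EiJ and C57BL/6J lowest at 22.4 and 28.1%. The difference was -38.4 points without overlap (limma, adjusted p = 2.4e-08). A tile 14270 bp from Ddx6, an RNA helicase gene, likewise lay below all other samples, at 10.5% against 54.2% (limma, adjusted p = 1.3e-05).

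At other called tiles 129S1/SvImJ stood with a few strains. In Ldlrad3, a gene of the LDL receptor domain family, 129S1/SvImJ was at 6.43% ± 5.72 (SD, n = 3) and C57BL/6J at 10.5%. CAST/EiJ was at 41.9%, and the other 6 strains lay between 75.6 and 96.4% (limma against the mean of 8, adjusted p = 2.8e-10). In Trhde, which encodes an enzyme that degrades thyrotropin-releasing hormone, 129S1/SvImJ was at 2.66% ± 3.44 (SD, n = 3), beside PWK/PhJ at 7.51%, CAST/EiJ at 11.6% and WSB/EiJ at 14.7% (adjusted p = 5.8e-08). In Cables1, a gene of a cyclin-dependent kinase adaptor, 129S1/SvImJ at 89.6% ± 6.18 (SD, n = 3) was near PWK/PhJ at 88.8%, while CAST/EiJ was at 51.9% and the other 6 strains were at 20.6% or less (adjusted p = 2.0e-10). All of these sample ranges overlapped those of another strain.

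The widest called region by number of positions was in Snx20, a sorting nexin gene, with 123 positions at chr8:88627001-88628000. It measured 64.7, 68.8 and 61.4% in 129S1/SvImJ. DBA/2J, NOD/ShiLtJ, NZO/HlLtJ and WSB/EiJ had means from 56.6 to 63.5%, and C57BL/6J, A/J, PWK/PhJ and CAST/EiJ were at 20.01, 10.5, 5.01 and 2.38% (limma against the mean of 8, adjusted p = 8.0e-08). In Disc1, a gene of neuronal scaffolding, 129S1/SvImJ was at 75.9% ± 7.33 (SD, n = 3), in the range of C57BL/6J at 85.4%, DBA/2J at 75.5% and NZO/HlLtJ at 70.4%, and CAST/EiJ was lowest at 5.38% (limma, adjusted p = 1.4e-05). At Lxn, which encodes a carboxypeptidase inhibitor, the 10 marked promoter positions averaged 68.0, 66.0 and 65.3% in 129S1/SvImJ, A/J was at 78.9% and WSB/EiJ at 8.02%. The levels of the 3 samples of 129S1/SvImJ differed little here, against strain means that spanned most of the scale.

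In direct comparison with single strains, 129S1/SvImJ was nearest to DBA/2J by number of called tiles and farthest from PWK/PhJ. Against DBA/2J 267 tiles were called (0.585%), 149 of them higher in 129S1/SvImJ. Against NZO/HlLtJ, NOD/ShiLtJ and C57BL/6J there were 278 (0.610%), 282 (0.618%) and 305 (0.669%). The numbers were 357 (0.783%) against WSB/EiJ and 386 (0.846%) against A/J. CAST/EiJ and PWK/PhJ gave 1026 (2.25%) and 1094 (2.40%). At single positions the nearest strain was NZO/HlLtJ, with 1734 called positions, and DBA/2J followed with 1966.

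The direction was uneven in some pairs. Against A/J, 311 tiles were lower in 129S1/SvImJ and 75 higher. Against PWK/PhJ 786 were lower and 308 higher, and against CAST/EiJ 661 and 365. Against C57BL/6J 166 were higher and 139 lower, and against WSB/EiJ 189 and 168. All pairs share the samples of 129S1/SvImJ, so these counts are not independent, and the differences between them were not tested.

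**Figure D3:**
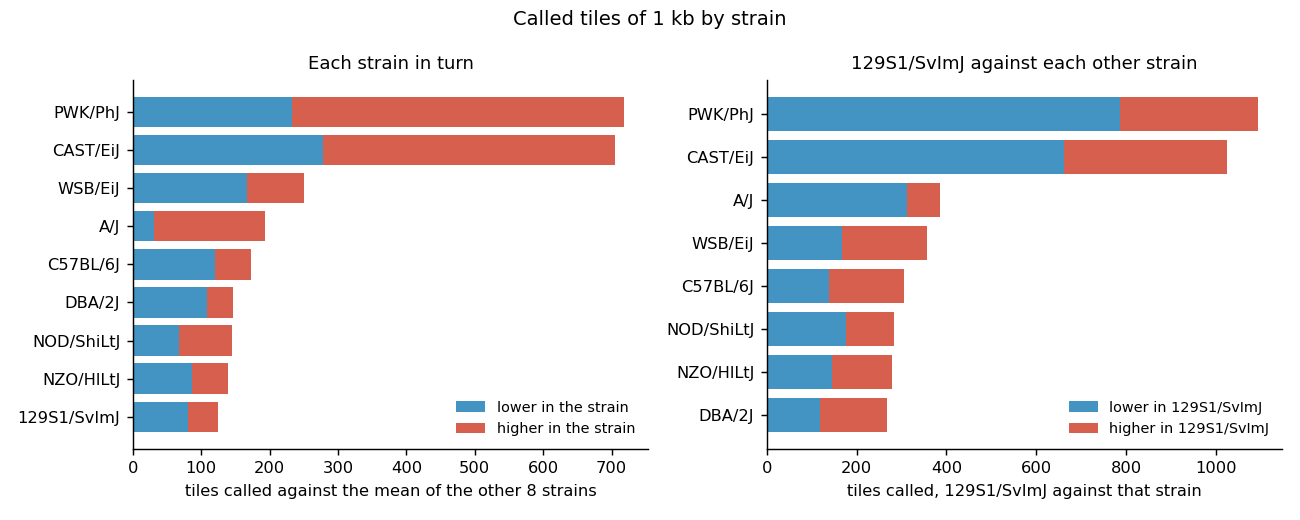
Number of tiles called for each strain against the mean of the other 8 (left) and for 129S1/SvImJ against each other strain (right), split by direction. The bar of 129S1/SvImJ is the shortest on the left at 125 tiles, and on the right the bars run from 267 tiles for DBA/2J to 1094 for PWK/PhJ.

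Tiles in which 129S1/SvImJ and exactly 1 other strain lay apart together from the remaining 21 samples were counted by the same gap of 10 points. Of the 45604 tiles tested, 7 were such tiles with DBA/2J, 5 with C57BL/6J and 3 with PWK/PhJ. There were 2 each with A/J, CAST/EiJ and NOD/ShiLtJ, 1 with NZO/HlLtJ and 0 with WSB/EiJ. Neighbouring tiles at 1 place were counted singly, and pairs of strains without 129S1/SvImJ were not counted. The order of the partners thus rests on few places and was not tested. The 6 largest gaps came from 4 places, and 2 of these places were shared with DBA/2J.

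The largest was 55385 bp from Dap, a gene named for a role in cell death, at chr15:31168001-31169000. It measured 3.99, 2.48 and 4.26% in 129S1/SvImJ and 2.24, 2.32 and 2.05% in PWK/PhJ. The other 21 samples ran from 73.9 to 100% with a median of 91.1%. Both strains were almost unmethylated where all other samples were highly methylated (limma, both strains against the other 7, adjusted p = 2.5e-14).

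At n-TGgcc4, a tRNA gene on chromosome 1, neighbouring tiles were shared with DBA/2J. The first, chr1:171044001-171045000, measured 96.2, 88.0 and 72.7% in 129S1/SvImJ, and 89.0, 65.8 and 93.2% in DBA/2J. The second, chr1:171045001-171046000, measured 50.4, 62.5 and 48.4% in 129S1/SvImJ and 65.0, 47.8 and 57.4% in DBA/2J. In both tiles none of the other 21 samples exceeded 2.88% (limma, both strains against the other 7, adjusted p = 6.4e-14 and 4.7e-16). The nearest protein-coding gene was Fcgr3, an Fc receptor gene of immune cells.

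On chromosome 9 the tile chr9:123924001-123925000, with 46 positions, lay 37126 bp from Ccr1, a chemokine receptor gene. It measured 75.7, 79.6 and 78.7% in 129S1/SvImJ and 76.4, 75.5 and 54.6% in DBA/2J, and at most 12.8% in the other 21 samples (limma, both strains against the other 7, adjusted p = 6.4e-14). The neighbouring tile, which holds the start of the long non-coding RNA gene Gm51701, measured 78.6, 75.0 and 77.2% in 129S1/SvImJ and 81.7, 77.2 and 58.4% in DBA/2J, against at most 23.0% elsewhere (adjusted p = 2.7e-14). Both tiles were thus methylated in all 6 samples of these strains and low in the rest. In the promoter printed above, however, the 7 marked positions averaged 57.1, 57.1 and 53.6% in 129S1/SvImJ and 29.4% in DBA/2J, and the other strains were at 1.19% or less.

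At D130009I18Rik, a long non-coding RNA gene on chromosome 14, the tile chr14:104715001-104716000 was at 7.53, 7.54 and 8.52% in 129S1/SvImJ. CAST/EiJ samples were at 11.9, 13.6 and 15.2%, and the other 21 samples were between 59.8 and 92.5% (limma, both strains against the other 7, adjusted p = 1.9e-13). Within this pair the samples of 129S1/SvImJ were all below those of CAST/EiJ. Set against all 24 other samples as 1 group, partner included, the tiles near Dap, the second at n-TGgcc4 and at Gm51701 had adjusted p-values of 0.077, 0.067 and 0.095 (limma).

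**Figure D4:**
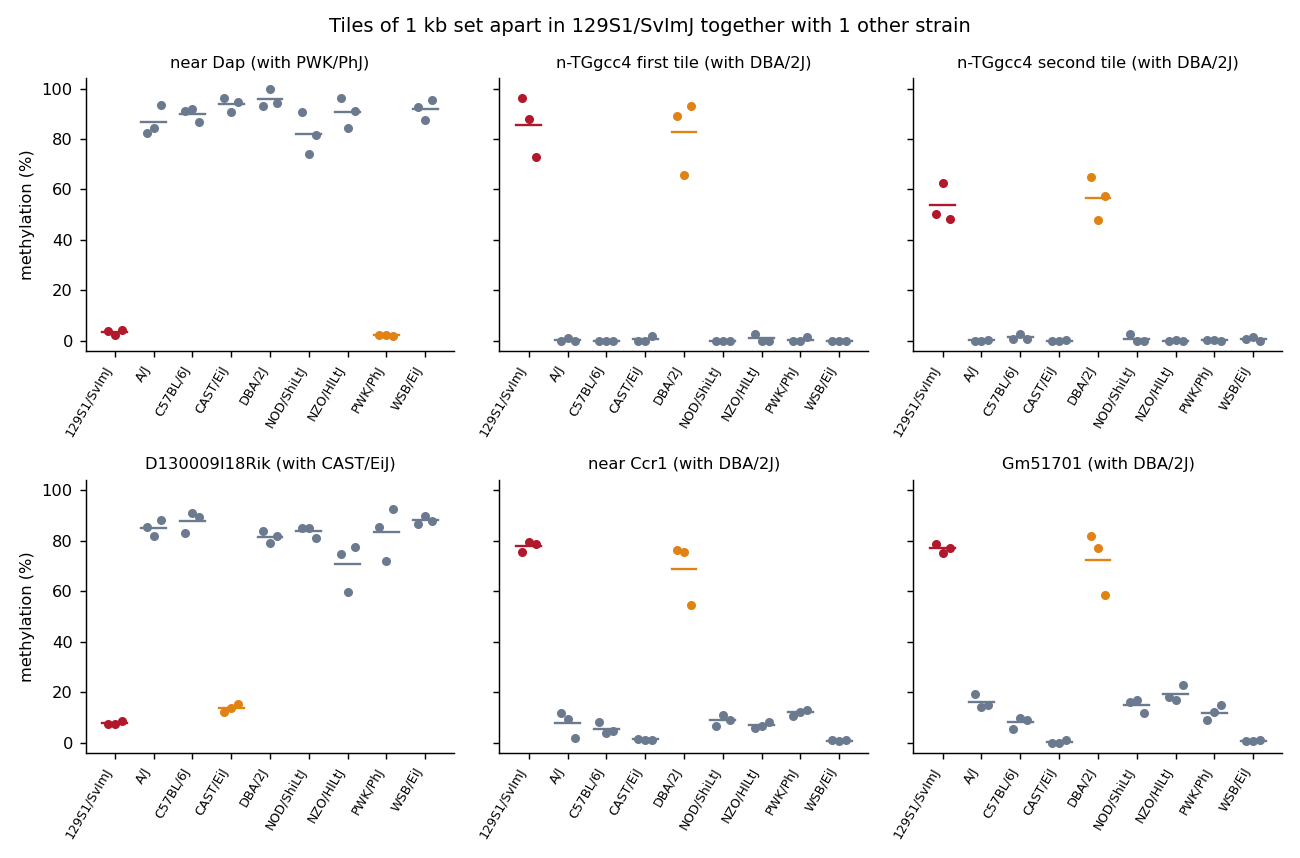
Mean percent methylation of the 6 tiles with the largest gap shared by 129S1/SvImJ and 1 other strain, with 1 point per sample and a bar at each strain mean. 129S1/SvImJ is red, its partner orange and the other strains grey, and the pair is far from the other 21 samples in each panel.

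By chromosome, the share of called tiles was highest on chromosome 14, where 8 of 1531 tiles were called (0.523%), all lower in 129S1/SvImJ. These lay at D130009I18Rik, at Dnajc3, a chaperone gene of the endoplasmic reticulum, at Dock9, a guanine nucleotide exchange factor gene, at Opn4, the melanopsin gene, with 2 tiles, at Gm7247, near Ebpl and at Slc7a8, an amino acid transporter gene. Chromosome 2 followed with 16 of 3514 tiles (0.455%), 8 in each direction, and held 3 of the 9 set-apart tiles. On chromosome 7, 11 of 13 called tiles were lower. Single positions gave another order. Chromosomes 14 and 2 had 0.308 and 0.258% of their positions called, beside 0.275% over all positions. The highest shares among autosomes were 0.434% on chromosome 9 and 0.422% on chromosome 8, and both owed much to 1 place. On chromosome 9, 51 of 155 called positions lay in chr9:123000001-124000000, the window with the tiles near Ccr1 and at Gm51701. On chromosome 8, 45 of 174 lay in chr8:88000001-89000000, the window with the Snx20 tile. The window of 1 Mb with the most set-apart tiles was chr2:155000001-156000000, with the 2 neighbouring tiles at BC029722, and 7 other windows held 1 each.

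Among chromosomes other than Y, on which 4 tiles were tested and 0 called, the lowest shares were on chromosome 19, with 1 of 1458 tiles (0.0686%), and on the X chromosome, with 0 of 1587. On the X chromosome limma gave an adjusted p under 0.05 for 13 tiles, all with differences under 25 points, and an unadjusted p under 0.05 for 162. The differences in share between chromosomes were not tested.

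**Figure D5:**
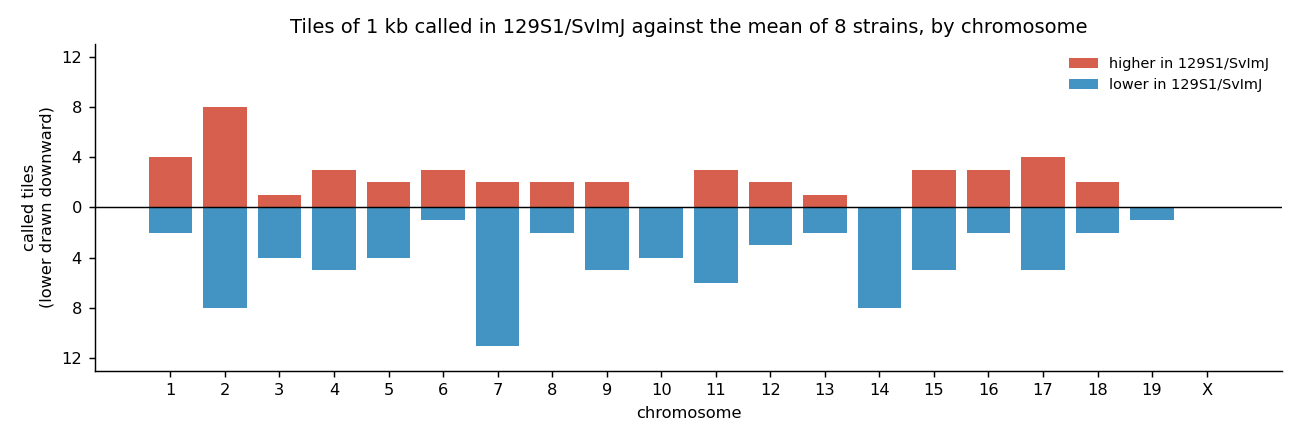
Number of tiles called in 129S1/SvImJ against the mean of the other 8 strains on each chromosome, higher tiles drawn upward in red and lower tiles downward in blue. Chromosome 14 has 8 lower tiles and no higher one, and the X chromosome has none.

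By position relative to genes, 18 of 8854 tiles with an end of a protein-coding gene within 1 kb were called (0.203%), 60 of 22931 other tiles inside such genes (0.262%) and 47 of 13819 elsewhere (0.340%). Set-apart tiles were distributed as 4, 3 and 2. Starts and ends were not told apart in these counts, because the gene table gives spans without strand and the promoter table gives starts for part of the genes only.

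The mean level of 129S1/SvImJ was in the middle of the strains. Over all shared positions its samples had 27.60, 27.86 and 27.74%, and the other 24 samples ran from 27.24 to 28.64% with a median of 27.71%. The difference from the mean of the other strains was -0.114 points (exact permutation test over samples, two-sided, p = 0.647, adjusted over 7 sets p = 0.816, n = 3 and 24), and 4 of the 8 other strains lay below. On the X chromosome it was 45.3% ± 0.155 (SD, n = 3) against 45.0% (exact permutation test, p = 0.700, adjusted p = 0.816). Without CAST/EiJ and PWK/PhJ both differences changed sign, to 0.0594 points overall and -0.0179 points on the X chromosome. With all strains, both were smaller than the SD of the 8 other strain means, 0.450 and 1.21 points. The other sets were all autosomes and 4 classes of distance from a gene end, and their adjusted p-values were between 0.816 and 0.948 (exact permutation test). Within 129S1/SvImJ the median SD of a tile was 2.49 points, against 2.34 to 2.97 in the other strains.

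Of 15 gene lists for liver function and for gene families, none had a called tile within 1 kb of a member. The lists do not hold every gene of a class. Called tiles lay in the solute carrier genes Slc7a8, Slc30a7 and Slc2a9 and in the zinc finger gene Zbtb48, which are on no list. The lists together held 1420 tiles, counting a tile once per list, of which limma gave 60 an adjusted p under 0.05 (4.23%) and 213 an unadjusted p under 0.05 (15%). Over all tiles tested these shares were 3.67 and 15%, and 0.274% were called. The tiles of zinc finger genes numbered 495, those of Hox genes 156, transporters 120, protocadherins 109 and imprinted genes 88. Cytochrome P450 genes had 72 tiles, fatty acid and cholesterol synthesis 73, insulin and IGF signalling 70, nuclear receptors of liver metabolism 66 and hepatocyte transcription factors 55. Genes that write, erase or read DNA methylation had 40, drug conjugation enzymes 25, glucose and glycogen metabolism 23, serpins 17 and histocompatibility genes 11. List medians of the difference lay between -1.93 points for histocompatibility genes and 0.610 points for serpins.

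Of the 1420 list tiles, 2 had an adjusted p under 0.05 and no overlap with other samples (0.141%), beside 163 of all 45604 (0.357%). In Rxra, the retinoid X receptor that pairs with most nuclear receptors of liver metabolism, the tile chr2:27739001-27740000 measured 4.62, 7.36 and 4.89% in 129S1/SvImJ. The other samples ranged from 8.08 to 41.4% with a median of 18.6%, so that 129S1/SvImJ was lowest by a narrow margin (limma, adjusted p = 5.5e-03). In Cyp24a1, which inactivates vitamin D, 29 positions averaged 48.4, 50 and 42.7% against 50.05 to 68.1% with a median of 57.8% (limma, adjusted p = 1.1e-02).

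At single positions the lists held 83 calls among 23633 tests (0.351%), beside 0.275% over all positions. The groups of 3 or more called positions named here and in the next paragraph were chosen after their values were seen. Their levels are means over the called positions only and leave out other shared positions between them. That 129S1/SvImJ differs from the mean of the other strains there follows from this choice. The largest was at Zfp697, a zinc finger gene, where 21 called positions at chr3:98427762-98428527 averaged 72.2, 56.1 and 56.2% in 129S1/SvImJ. The other samples ran from 0.238 to 51.0%, with NZO/HlLtJ highest and C57BL/6J lowest by strain mean at 49.4 and 1.76%. At these called positions the 3 samples of 129S1/SvImJ were highest without being far from the next strains. At Zfp180, another zinc finger gene, 3 called positions averaged 66.7, 79.5 and 88.9% against 0 to 52.4% in the other samples. At Zfp704, of the same gene class, 3 called positions at chr3:9523416-9523557 were lower in 129S1/SvImJ, at 2.22, 12.4 and 6.85%. The other samples ran from 0 to 100% with a median of 50.7%, and C57BL/6J, NZO/HlLtJ and NOD/ShiLtJ were as low, at 5.35, 6.78 and 7.10%.

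Abcb1a held 17 of the 18 calls in the list of transporter genes, all in the block near the start of Rundc3b described above. At 4 called positions at chr17:12769711-12769778, within 1 kb of both Igf2r, the imprinted receptor that clears insulin-like growth factor, and Airn, its antisense RNA, 129S1/SvImJ measured 85.1, 90.9 and 52.3%. The other samples ranged from 18.2 to 71.9% with a median of 34.5%, and 2 of them lay above the lowest sample of 129S1/SvImJ. At Gpi1, a glycolysis gene, 3 called positions were at 39.4% ± 4.17 (SD, n = 3) in 129S1/SvImJ, between NZO/HlLtJ at 25.3% and DBA/2J at 51.9%. The other 6 strains were at 2.57% or less.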

How the data were processed

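DNA of hepatocytes from 27 mice was sequenced after reduced representation bisulfite treatment with a commercial kit, per the labels' protocols. Trim Galore 0.6.3, Bowtie2 and Bismark 0.22 and the builds GRCm38 and mm10 are named in the submitters' processing notes. For each sample the authors deposited positions with percent methylation, per the file headers, without counts, so that depth is unknown and intervals for counting error cannot be given. Of 278102 listed positions in promoters of RefSeq's GRCm38.p6 table, 278096 lay at a CpG. The C57BL/6J files name the mitochondrion differently, and any difference in their processing cannot be told apart from strain. A variant at a CpG, or a copy of a sequence that a strain carries beyond the reference, can change a listed percent, and strain genomes were not used here.

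Both strands of a CpG were separate positions. The test was limma's moderated test on log2((percent + 5)/(100 - percent + 5)) with strain as a factor over all 27 samples, which leaves 18 residual degrees of freedom. The contrast was 129S1/SvImJ against the mean of the 8 other strain means, with Benjamini-Hochberg adjustment over all features. It was computed in Python 3.11.15 (numpy 2.4.6, scipy 1.17.1, pandas 2.3.3, matplotlib 3.10.9) and checked in limma 3.58.1 under R 4.3.3: 1673 tiles and 2452 positions passed an adjusted p of 0.05 in each program, and 0 fell on different sides. The test was tested on simulated data. Among 45604 tiles, 200 each were shifted by 30 and 50 points, with means of 20 to 80% before the shift. Of these, 87.0 and 99.5% were called, and 0 of the unshifted ones. The unshifted tiles were simulated without differences between strains. Their result thus cannot tell how often a tile is called where the other strains differ among themselves. The samples are labelled as biological replicates of inbred animals, and p-values measure the spread within strains. By rule, the tiles named were all set-apart tiles, the 6 tiles with the largest gap shared with 1 other strain and tiles of a list with 5 or fewer calls. The windows with most set-apart tiles and the chromosomes with the highest and lowest share called were also named. Names are those of the overlapping or nearest gene. Other tiles are named outside these rules, among them called tiles chosen after their values were seen. Members and lists were chosen with earlier results of these data known. The planned context by transcription starts was replaced by gene ends, because the gene table has no strand and the promoter table covers part of the genes. Alternatives covered the offset, scale, filters, thresholds, tile size, strands, strains and each sample left out.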

Additional observations from a re-analysis of the deposited data

How the results depend on the processing

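Of 775 alternative values, 736 stayed on the same side of the threshold with the same sign, or within 1.5 times the main count. Of the 775, 536 were for tiles named for their gaps in these same data, and 533 of these stayed. A named tile that a setting left untested gave no value there. The total of 736 thus says little about stability. Among all values, 34 counts moved further, 2 differences changed sign and 3 tile values lost their call. The 9 set-apart tiles were among those found with other offsets, the untransformed percent, no filter on the mean and each sample of another strain left out. With 129S1/SvImJ against the other 24 samples as 1 group, 23 tiles and 435 positions were called, and the tiles near Dap (adjusted p = 0.077), the second at n-TGgcc4 (0.067) and at Gm51701 (0.095) lost their limma call. An offset of 1 point gave 984 called positions and the untransformed percent 3139. Means of 10 to 90% left 5 tiles and 126 positions set apart, and without CAST/EiJ and PWK/PhJ there were 24 and 353. Tiles of 3 or more positions gave 241 called and 28 set apart, and of 10 or more 32 and 4. A minimum difference of 10 points gave 1080 called tiles, 50 points 12 tiles and 447 positions. Gaps of 0 and 25 points gave 163 and 5 set-apart tiles and 454 and 79 positions. At 10 points the pairs had 851 called tiles (DBA/2J), 924 (NZO/HlLtJ), 990 (C57BL/6J), 1034 (NOD/ShiLtJ), 1179 (WSB/EiJ), 1640 (A/J), 3413 (CAST/EiJ) and 3879 (PWK/PhJ). Without CAST/EiJ and PWK/PhJ the differences in mean level turned to 0.0594 points overall and -0.0179 on the X chromosome. Positions listed in 2 or more of 3 samples of 129S1/SvImJ numbered 7664 in no other sample and 5343 in the reverse case. The cause of these changes was not tested.

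Leaving out each sample gave 124 to 141 called tiles, 9 to 16 set-apart tiles, 1147 to 2005 called positions, 194 to 393 set-apart positions, and mean differences of -0.176 to -0.0465 overall and 0.195 to 0.345 on the X chromosome. Replicate 1 of 129S1/SvImJ gave the 16 tiles and the 1147 positions when left out, and set-apart positions numbered 298, 393 and 334 without its replicates 1, 2 and 3. Without any of them 7 of the 9 tiles were still found. The tiles at Mrpl19 and Mbtd1 then had means under 2.5% and were not tested. With the replicate number as a block, 122 tiles and 1567 positions were called and 9 and 191 set apart. Same-numbered samples of different strains did not deviate together (mean correlation 0.00404, from -0.0289 to 0.0322, over 76 pairs), so no pairing by number showed in the tiles. This check cannot tell whether same-numbered samples were handled together.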

Other observations

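Some positions were listed in all samples of 129S1/SvImJ and in none of the other 24, or the reverse. There were 4553 of the first kind and 3171 of the second. In the other strains these numbers ran from 3204 and 2523 in A/J to 103624 and 72191 in CAST/EiJ. For 129S1/SvImJ they were 551 and 416 on chromosome 4, and 44 and 9 on the X chromosome. Per 100 positions listed in all 27 samples, these are 0.451 and 0.341 on chromosome 4, and 0.113 and 0.0231 on the X chromosome. Chromosome 18 was above chromosome 4 by this measure, with 0.567 and 0.359. A group of 18 positions at chr12:31045714-31045975, 27993 bp from Fam110c, was listed in 129S1/SvImJ only, as were 14 positions in Gm16867 on chromosome 14. In the other direction, 13 positions at chr17:87949886-87950000, 25050 bp from Msh6, a mismatch repair gene, and 12 positions in Lrrc1, a cell polarity gene, were listed in all 24 other samples and in no sample of 129S1/SvImJ. No level can be compared at these positions, and whether coverage, a variant or a missing stretch of sequence set the listing was not tested.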
